A study of Homo sapiens with 30 samples.

Results

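Ruxolitinib was set against its solvent, DMSO, in the paclitaxel-resistant derivative of SUM190, a HER2-amplified inflammatory breast cancer cell line. The comparison used 4 of the 30 libraries of the series: the 2 labelled PR_RUX and the 2 labelled PR_DMSO. Genes were kept where the deposited CPM (reads of a gene scaled to a common library size, after the authors' scaling of the libraries) reached at least 1 in 2 or more of the 30 libraries, which left 12743 of the 20114 genes in the table. Of these, 11653 passed in the 4 libraries compared, and 1090 passed only through other groups.

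The study profiled mRNA of the parental SUM190 line and of its paclitaxel-resistant and doxorubicin-resistant derivatives under drugs and drug combinations, in duplicate. PR_RUX cells received 15 uM ruxolitinib and PR_DMSO cells received the solvent. For comparison, PR_RUX_PTX cells are resistant cells that received ruxolitinib with 6.5 nM paclitaxel, set against PR_PTX_Low cells with 6.5 nM paclitaxel alone. Par_RUX cells are parental cells with 15 uM ruxolitinib, set against Par_DMSO cells. The labels give ruxolitinib as 15 nM in the combination groups and as 15 uM in the single-agent groups, so the doses are taken here as labelled and not as equal. All groups shared the seeding scheme, a start of treatment 24 h after seeding and 72 h of exposure. The resistant cells are 1 derived line, and the labels used here do not say whether it is a clone or whether it was kept on paclitaxel before seeding. Nor do they say that the 2 libraries of a group came from separate cultures, so every p-value measures the spread between libraries, which may be technical.

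Ruxolitinib inhibits the kinases JAK1 and JAK2. These kinases sit on cytokine receptors and phosphorylate STAT transcription factors, which then enter the nucleus: STAT3 downstream of the IL6 family of cytokines, and a complex that holds STAT2 and IRF9 downstream of type I interferon. STAT dimers bind a palindromic element called GAS, and the complex with IRF9 binds the interferon-stimulated response element, ISRE. STAT3 also raises SOCS3, which blocks the receptor complex, so that SOCS3 mRNA is often read as a gauge of the pathway.

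The promoters below belong to genes described in the results, and are shown because they hold the elements those results refer to. They are RefSeq promoter windows in the GRCh38.p14 build, 300 bases that run from upstream of a gene's start to just past it, 5′ to 3′ on the gene's strand. The files themselves used an earlier build and name genes by symbol alone. Capitals mark matches, on either strand, to GAS (TTCNNNGAA), to the core of ISRE (GAAANNGAAA, or TTTCNNTTTC on the other strand) or to the element bound by ATF4 (TGATGNAA, or TTNCATCA on the other strand).
IRF9, GAS, chr14:24161015-24161314, plus strand: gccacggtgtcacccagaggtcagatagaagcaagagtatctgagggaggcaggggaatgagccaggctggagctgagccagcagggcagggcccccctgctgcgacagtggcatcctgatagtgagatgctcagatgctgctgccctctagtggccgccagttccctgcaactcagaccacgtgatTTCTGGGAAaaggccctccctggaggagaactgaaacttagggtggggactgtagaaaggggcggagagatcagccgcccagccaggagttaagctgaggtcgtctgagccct
IRF1, GAS, chr5:132490724-132491023, minus strand: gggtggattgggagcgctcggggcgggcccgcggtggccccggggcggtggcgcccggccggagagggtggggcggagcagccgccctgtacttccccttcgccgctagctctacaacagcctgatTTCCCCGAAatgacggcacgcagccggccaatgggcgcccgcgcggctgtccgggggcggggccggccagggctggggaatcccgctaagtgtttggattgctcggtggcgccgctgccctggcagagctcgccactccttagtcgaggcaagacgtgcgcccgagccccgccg
ICAM1, GAS, chr19:10270870-10271169, plus strand: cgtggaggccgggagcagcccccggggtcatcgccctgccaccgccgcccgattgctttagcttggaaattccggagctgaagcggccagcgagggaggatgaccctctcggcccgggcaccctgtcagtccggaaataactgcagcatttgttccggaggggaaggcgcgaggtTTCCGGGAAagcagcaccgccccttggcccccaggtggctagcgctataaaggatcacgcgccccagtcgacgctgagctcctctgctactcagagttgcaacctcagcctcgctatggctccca
IFIT1, ISRE core, chr10:89392373-89392672, plus strand: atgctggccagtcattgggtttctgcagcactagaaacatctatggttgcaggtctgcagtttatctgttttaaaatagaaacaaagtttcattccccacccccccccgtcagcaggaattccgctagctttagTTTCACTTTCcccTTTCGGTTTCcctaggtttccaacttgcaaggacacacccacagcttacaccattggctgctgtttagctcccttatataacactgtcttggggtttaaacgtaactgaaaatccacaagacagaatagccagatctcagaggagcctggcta
IFIT5, ISRE core, chr10:89414318-89414617, plus strand: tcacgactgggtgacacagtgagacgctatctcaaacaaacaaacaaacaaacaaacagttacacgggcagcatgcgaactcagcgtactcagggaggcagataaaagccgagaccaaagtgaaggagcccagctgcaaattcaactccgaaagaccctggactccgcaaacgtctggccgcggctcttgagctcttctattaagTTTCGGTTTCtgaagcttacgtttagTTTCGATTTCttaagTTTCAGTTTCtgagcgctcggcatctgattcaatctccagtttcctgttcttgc
DDX60, GAS and ISRE core, chr4:168318703-168319002, minus strand: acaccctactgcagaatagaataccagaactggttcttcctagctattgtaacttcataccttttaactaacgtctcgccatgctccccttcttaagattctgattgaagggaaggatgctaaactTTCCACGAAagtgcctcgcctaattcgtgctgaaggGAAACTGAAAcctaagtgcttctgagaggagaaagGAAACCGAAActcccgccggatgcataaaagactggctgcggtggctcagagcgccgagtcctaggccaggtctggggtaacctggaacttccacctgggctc
ASNS, ATF4 element, chr7:97872359-97872658, minus strand: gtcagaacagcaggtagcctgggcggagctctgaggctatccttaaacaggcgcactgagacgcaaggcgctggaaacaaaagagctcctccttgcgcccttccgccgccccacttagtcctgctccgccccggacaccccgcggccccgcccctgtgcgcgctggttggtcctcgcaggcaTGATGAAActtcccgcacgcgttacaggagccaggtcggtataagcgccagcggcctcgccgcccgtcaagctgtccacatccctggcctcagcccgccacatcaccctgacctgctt
CHAC1, ATF4 element, chr15:40953221-40953520, plus strand: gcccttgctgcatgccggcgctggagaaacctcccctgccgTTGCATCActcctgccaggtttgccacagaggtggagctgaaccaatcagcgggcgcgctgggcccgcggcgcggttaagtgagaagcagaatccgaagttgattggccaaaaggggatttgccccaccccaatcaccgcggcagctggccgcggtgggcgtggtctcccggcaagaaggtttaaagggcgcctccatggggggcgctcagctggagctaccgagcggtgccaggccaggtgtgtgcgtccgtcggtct

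The PR_RUX libraries held 21071614 and 29241801 reads, and the PR_DMSO libraries 24061106 and 25117476 reads, as recovered from the steps of the CPM values. Replicates correlated at r = 0.998 in PR_RUX and 0.999 in PR_DMSO across genes, which are not independent replicates. Their reads differed by 5.85 and 3.19 times the sampling variance, which is more than counting error alone gives. Such values cannot tell separate cultures from repeat runs of 1 library. The 2 Par_DMSO libraries stood apart from the other groups used here, differing by 37.7 times the sampling variance, and results that rest on them are given with and without each. The cells carried the markers of a HER2-amplified luminal line in all 4 libraries, with ERBB2 at 2635 to 2947 CPM, KRT19 at 989 to 1125 CPM and EPCAM at 352 to 396 CPM. The basal keratins KRT5 and KRT14 lay between 0 and 0.243 CPM, while TP63, also a basal marker, lay at 8.39 to 14.3 CPM. The 14 immune markers summed to 8.58 to 10.2 CPM in PR_RUX and 10.7 to 11.2 CPM in PR_DMSO, with 8 of them at 0 in each library. The 11 stromal and endothelial markers summed to 37.18 to 39.96 CPM in PR_RUX and 31.37 to 32.04 CPM in PR_DMSO.

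More genes were called lower than higher with ruxolitinib in the resistant cells before a correction for GC and length, but not after it. Few moved by 1 or more on the log2 scale. By limma, with Benjamini-Hochberg adjustment over all genes tested and a threshold of 0.05, 882 genes changed, which is 6.92% of those tested: 364 rose (2.86%) and 518 fell (4.06%). Of these, 149 rose and 249 fell by at least 0.5 on the log2 scale, and 15 rose and 27 fell by at least 1. The median log2 fold change over all genes was 0.00. The authors' scaling of the libraries holds most genes near 0, so this median cannot show whether total mRNA changed. In bulk RNA, fewer cells of a type and less RNA per cell cannot be told apart. All log2 values here are of CPM + 1, which understates the change of genes at low CPM. The count fell to between 358 and 407 when any 1 of the 4 libraries was left out, and no called gene reversed direction. The log2 fold change followed the GC percent of the genes (Spearman rho 0.295 across 12666 genes), as did the difference between the PR_RUX replicates (0.372). After a correction for GC and length in each library, 863 of the 882 genes were still called in the same direction, within totals of 964 higher and 960 lower.

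**Figure D1:**
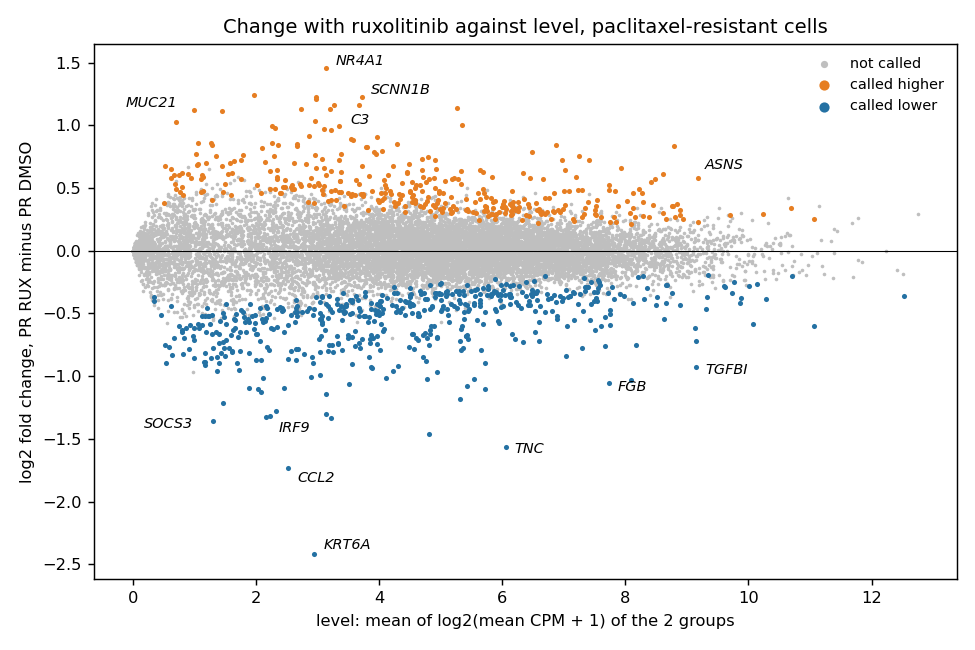
Log2 fold change of PR_RUX over PR_DMSO (vertical axis) against level, the mean over both groups of log2(mean CPM + 1) (horizontal axis), for 12743 genes. The 364 genes called higher (orange) and the 518 called lower (blue) spread over the whole range of levels, and the lowest point is KRT6A at -2.42.

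Among the 15 genes that fell most at 5 CPM or more, KRT6A led. This keratin, made by stressed and wounded epithelium, was at 1.81 and 2.87 CPM in PR_RUX, against 16.4 and 16.9 CPM in PR_DMSO. It fell 7.13-fold (log2 fold change -2.42 ± 0.15 SE, adjusted p = 2.9e-10), and KRT16, its usual partner, fell to 4.96 and 4.73 CPM, against 13.5 and 14 CPM (-1.34 ± 0.12). Both have close copies in the genome, so part of their reads may belong to relatives.

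CCL2, a chemokine that draws monocytes, had 2.003 and 2.31 CPM in PR_RUX, against 9.53 and 9.38 CPM in PR_DMSO. That is a fall of 4.38-fold (log2 -1.73 ± 0.19, adjusted p = 1.4e-06). Tenascin C (TNC), a matrix glycoprotein, was much more abundant at 37 and 38.3 CPM in PR_RUX and 112 and 114 CPM in PR_DMSO (log2 -1.57 ± 0.12, adjusted p = 2.2e-08). ITGB6, the beta chain of an epithelial integrin that activates TGF-beta, fell to 35.7 and 34.3 CPM, against 76.1 and 76.1 CPM (-1.10 ± 0.11).

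MXRA5, a secreted matrix protein, fell to 26 and 24.8 CPM in PR_RUX, against 58.2 and 59.3 CPM in PR_DMSO (-1.18 ± 0.09). GLYATL2, a glycine acyltransferase, fell to 16.7 and 15 CPM, against 45.1 and 45.7 CPM (-1.46 ± 0.15). The other falls among the 15 largest at 5 CPM or more were IRF9 and TUBB3, described below, and B3GALNT1, RCN1, CWH43, ZNF630, ZDHHC4 and TMEM98, with log2 fold changes between -1.33 for B3GALNT1 and -1.08 for TMEM98.

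Among the genes that rose, the nuclear receptor NR4A1 led, at 14.2 and 12.9 CPM in PR_RUX, against 3.96 and 4.65 CPM in PR_DMSO (log2 1.46 ± 0.15, adjusted p = 1.2e-06). The 15 largest rises included SCNN1B and SCNN1G, which encode subunits of the epithelial sodium channel. SCNN1B was at 18.9 and 19.4 CPM in PR_RUX, against 7.97 and 7.32 CPM in PR_DMSO, a rise of 2.51-fold (1.22 ± 0.12). SCNN1G was at 11.9 and 13.2 CPM in PR_RUX, against 5.19 and 5.18 CPM in PR_DMSO, a rise of 2.42-fold (1.13 ± 0.12).

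Genes for 3 secreted proteins were among the 15 that rose most. PIP, the prolactin-induced protein of apocrine glands, had 11.1 and 10.8 CPM in PR_RUX and 4.47 and 3.88 CPM in PR_DMSO (1.21 ± 0.16, adjusted p = 2.5e-05). BPIFA2, a secreted salivary protein, had 10.4 and 11.4 CPM in PR_RUX and 4.51 and 3.72 CPM in PR_DMSO (1.23 ± 0.13). Complement C3, made by many epithelia in inflammation, had 12.5 and 14.3 CPM in PR_RUX and 5.9 and 6.51 CPM in PR_DMSO (1.00 ± 0.10, adjusted p = 8.6e-07).

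GREB1, an oestrogen-induced gene in breast cells, had 9.35 and 10.6 CPM in PR_RUX, against 5.44 and 3.44 CPM in PR_DMSO (1.04 ± 0.15), with unequal libraries in PR_DMSO. The remaining genes of the 15 that rose most were the carboxylesterase CES1, the kinase-dead receptor EPHB6, SERHL2, the ubiquitin ligase TRIM9, NAV2, the fucosyltransferase FUT1, VSIG10L and RAPGEF3, a cyclic AMP-activated exchange factor. Their log2 fold changes lay between 1.17 for CES1 and 0.97 for RAPGEF3. All 30 genes were called with the same direction under each of the 15 alternative settings run, the 4 that leave out a library included.

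**Figure D2:**
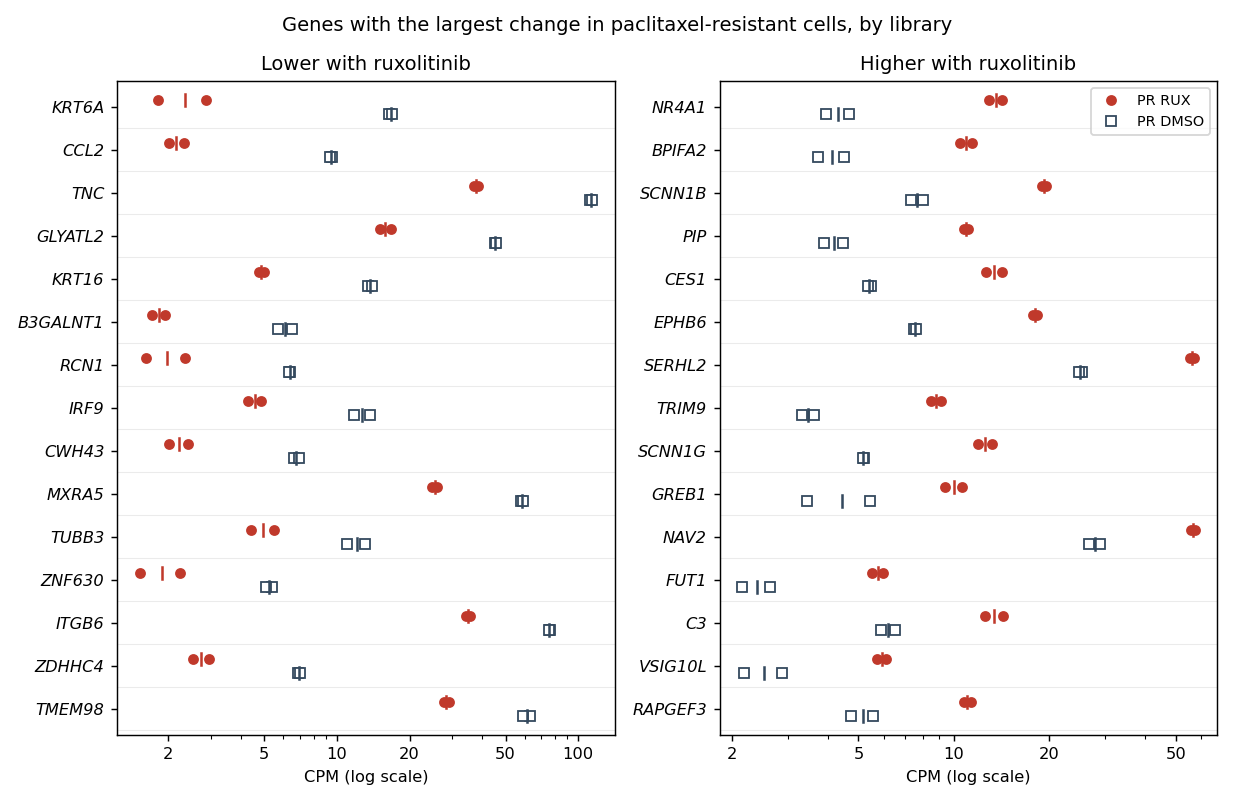
CPM on a log scale (horizontal axis) for the 15 genes that fell most (left panel) and the 15 that rose most (right panel), with PR_RUX libraries as filled circles above PR_DMSO libraries as open squares and a bar at each mean of 2. No gene shown has overlapping groups, which the rule for naming them required.

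Of 9 JAK kinases and STAT factors tested, 2 fell and none rose. The share that fell was 22.2%, against 4.06% of all genes, and log2 fold changes ran from -0.55 to 0.12. The counts of every list below stand against the same shares of all genes, 4.06% lower and 2.86% higher. STAT3, which carries signals of the IL6 family, fell. It had 145 and 149 CPM in PR_RUX, against 182 and 179 CPM in PR_DMSO (log2 -0.29 ± 0.07, adjusted p = 0.013), and the call was lost when any 1 library was left out. The drug's targets were not called, with log2 fold changes of 0.02 ± 0.08 for JAK1 and 0.12 ± 0.13 for JAK2.

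Among 5 ligands of the IL6 family, IL6 itself was called. It was scarce, with 0.429 and 0.483 CPM in PR_RUX, against 1.1 and 1.38 CPM in PR_DMSO (-0.62 ± 0.14, adjusted p = 0.0068). The IL6 call was not kept in every fit that left out a library. Of 19 receptor chains, 4 fell and 1 rose; with any 1 library left out, 2 fell and none rose, and EPOR, IL13RA1 and PRLR were lost. OSMR, the oncostatin M receptor that pairs with gp130, moved most, at 74.6 and 73.9 CPM in PR_RUX, against 125 and 121 CPM in PR_DMSO (-0.72 ± 0.10, adjusted p = 4.4e-05). IFNGR2, the signalling chain of the interferon-gamma receptor, fell by 0.56 on the log2 scale, and IL13RA1 and the prolactin receptor PRLR also fell, at -0.27 and -0.47. The erythropoietin receptor EPOR rose (0.57 ± 0.16), while gp130 (IL6ST) gave -0.06 ± 0.14 and was not called.

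Of 17 feedback inhibitors, limma called 1, SOCS3, and had 3 at an unadjusted p under 0.05, while voom called 2, SOCS3 and CISH. SOCS3 had 0.572 and 0.483 CPM in PR_RUX, against 2.4 and 3.48 CPM in PR_DMSO, which is 5.57-fold lower on the CPM scale (log2 -1.35 ± 0.18, adjusted p = 1.8e-05). Both PR_RUX libraries lay below both PR_DMSO libraries by a wide margin, although the gene is scarce in these cells. SOCS1 gave -0.26 ± 0.18, and CISH, a STAT5 target, gave 0.36 ± 0.12; neither passed by limma, and CISH was at 0.40 by voom (adjusted p = 0.045).

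Of 31 genes listed as STAT3 or STAT5 targets, 10 fell (32.3%, against 4.06% of all genes), none rose and 21 were not called. The list's median log2 fold change was -0.19, against 0.00 over all genes. ICAM1, an adhesion molecule whose promoter above holds a GAS element, had 13 and 13.6 CPM in PR_RUX, against 26.3 and 25.8 CPM in PR_DMSO (-0.92 ± 0.13, adjusted p = 3.8e-05). NNMT, nicotinamide N-methyltransferase, had 30.1 and 28.7 CPM in PR_RUX, against 53.5 and 49.99 CPM in PR_DMSO (-0.79 ± 0.09). SERPINA3, TGM2, OSMR, CEBPD, KLF6, BCL3, S100A8 and STAT3 made up the rest of the 10, from -0.90 for SERPINA3 to -0.29 for STAT3.

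Of the 21 that were not called, MYC gave -0.12 ± 0.08, CCND1 0.11 ± 0.06, BCL2L1 0.06 ± 0.11, MCL1 -0.19 ± 0.08 and PIM1 0.09 ± 0.12. With any 1 of the 4 libraries left out, 6 or 7 of the list were called lower and none higher.

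Type I interferon-stimulated genes mostly lay below 0. Of 45 tested, 17 fell (37.8%, against 4.06% of all genes), 2 rose (4.44%, against 2.86%) and 26 were not called. The median was -0.37, and 36 of the 45 lay below 0. With any 1 library left out, the count that fell was 9 to 12 and none rose. IRF9, a DNA-binding partner of STAT2, moved most, at 4.29 and 4.83 CPM in PR_RUX, against 13.7 and 11.8 CPM in PR_DMSO (2.79-fold lower, log2 -1.30 ± 0.15, adjusted p = 2.5e-06).

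PARP9 and DTX3L are partner genes that form an ADP-ribosylating ubiquitin ligase complex acting in interferon responses. PARP9 had 38 and 37.2 CPM in PR_RUX, against 71.6 and 69.7 CPM in PR_DMSO (-0.89 ± 0.08, adjusted p = 9.9e-08). DTX3L had 60.9 and 63 CPM in PR_RUX, against 106 and 101 CPM in PR_DMSO (-0.73 ± 0.08, adjusted p = 2.2e-06). In both genes each group's libraries were almost equal and the groups lay well apart.

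RSAD2, the antiviral enzyme viperin, was low throughout, with 0.668 and 0.587 CPM in PR_RUX and 2.02 and 2.1 CPM in PR_DMSO (-0.91 ± 0.22). The helicase DDX60 had 20.9 and 18.6 CPM in PR_RUX and 32.9 and 31.2 CPM in PR_DMSO (-0.67 ± 0.10, adjusted p = 5.5e-05). IFI44L, TRIM22, IFIT1, IFIT3, IFITM2, SAMD9, DDX58, IFIT5, SAMD9L, PARP14 and PLSCR1 also fell, from -0.80 for IFI44L to -0.42 for PLSCR1.

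Several well-known members were not called. ISG15 gave -0.04 ± 0.15, IFI6 -0.12 ± 0.17, MX1 -0.13 ± 0.15 and OAS3 0.06 ± 0.07. ISG20 had 9.15 and 8.63 CPM in PR_RUX, against 6.62 and 5.54 CPM in PR_DMSO (0.49 ± 0.14, adjusted p = 0.031), and MX2 rose as well (0.41 ± 0.12, adjusted p = 0.045); both calls were lost when any 1 library was left out.

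Of 23 targets of interferon-gamma and IRF1, 7 fell and none rose, with a median of -0.28, and 3 to 5 fell when 1 library was left out. IRF1, a transcription factor induced by interferon-gamma, had 17.7 and 20.2 CPM in PR_RUX, against 24.3 and 25.2 CPM in PR_DMSO (-0.37 ± 0.10, adjusted p = 0.026). GBP2, an interferon-induced GTPase, had 37.6 and 35.2 CPM in PR_RUX, against 49.9 and 51.4 CPM in PR_DMSO (-0.47 ± 0.08). ICAM1, NMI, APOL6 and GBP3 also fell. Of 18 class I antigen presentation genes, the proteasome subunit PSMB10 (-0.46 ± 0.13) and the peptidase ERAP2 (-0.40 ± 0.10) fell, and of 7 class II genes none was called by limma or voom or had an unadjusted p under 0.05.

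**Figure D3:**
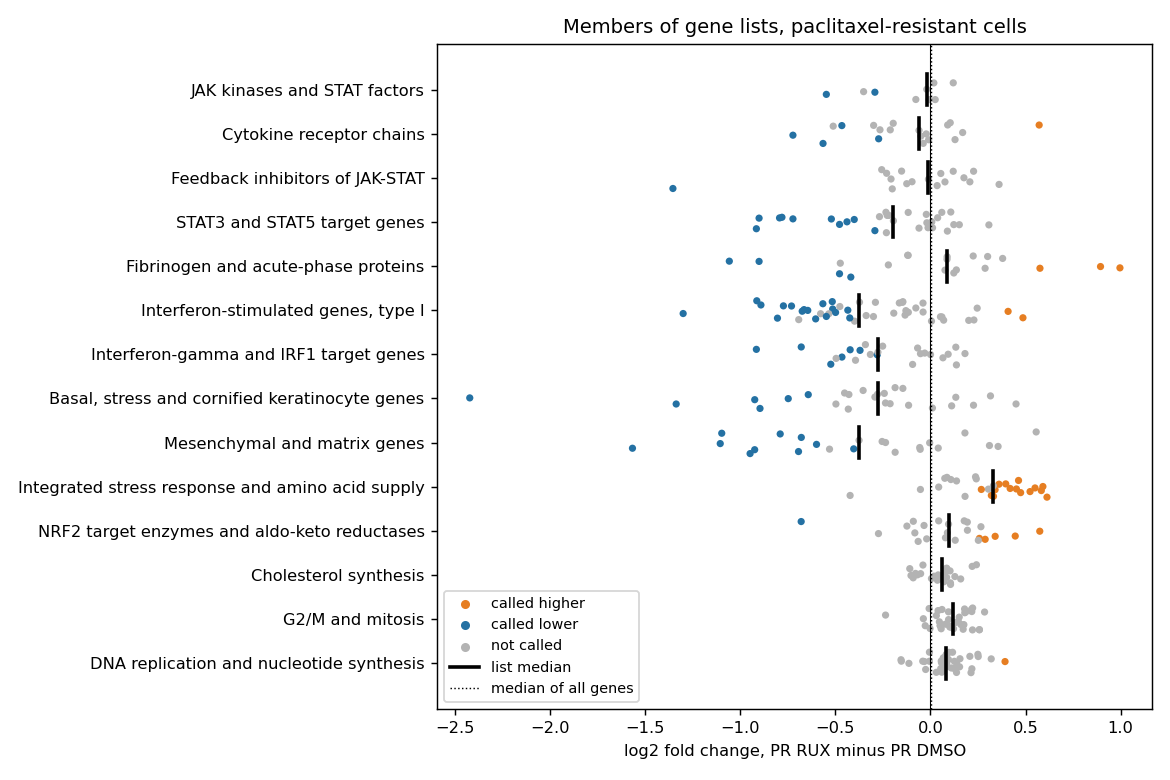
Log2 fold changes of PR_RUX over PR_DMSO (horizontal axis) for the tested members of 14 gene lists (rows), with each list's median as a bar and the median of all genes as a dotted line. The type I interferon, mesenchymal and keratinocyte lists extend to the left, and the integrated stress response list lies mostly to the right, with a median of 0.33.

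Promoter sequences could be matched by symbol to 9641 of the 12743 genes tested. The ISRE core was present in 4.01% of all matched promoters, in 8.31% of those of genes that fell and in 2.62% of those of genes that rose. In the type I interferon list it was present in 25 of 36 matched promoters, namely 12 of the 14 called genes and 13 of the 22 not called. GAS was present in 8.74% of all matched promoters, 14.03% of those that fell and 8.99% of those that rose. By list, GAS was in 2 of 23 promoters of STAT3 and STAT5 targets, 7 of 13 of interferon-gamma and IRF1 targets and 11 of 36 of type I interferon genes (4 of the 14 called and 7 of the 22 not called). The ATF4 element was present in 2.92% of all matched promoters, 2.34% of those that fell and 7.49% of those that rose. In the integrated stress response list it was in 3 of the 13 called genes and 3 of the 9 not called. These are letter matches in a 300-base window, in which 1 stretch may match more than 1 motif, and nothing about binding was measured.

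Acute-phase genes split in both directions. Of 20 tested, 4 fell (20%, against 4.06% of all genes) and 3 rose (15%, against 2.86%), with a median of 0.09. FGB, the fibrinogen beta chain, had 147 and 146 CPM in PR_RUX, against 320.2 and 292 CPM in PR_DMSO (-1.06 ± 0.12, adjusted p = 1.9e-06). The antiproteases SERPINA3 and SERPINA1 fell, at -0.90 and -0.48, and ceruloplasmin (CP), the copper-carrying oxidase, fell to 803 and 803 CPM, against 1086 and 1062 CPM (-0.42 ± 0.10).

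The rises were C3, given above, SAA1 and A2M. Serum amyloid A1 (SAA1), which has the close copy SAA2, had 13.7 and 16.1 CPM in PR_RUX, against 6.66 and 8.49 CPM in PR_DMSO (0.89 ± 0.15, adjusted p = 0.00026). A2M, a broad protease inhibitor, gave 0.58 ± 0.15. C3 was called with each library left out, but not all of these rises were.

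Of 27 NF-kB subunits and inflammatory targets, 4 rose (14.8%, against 2.86% of all genes) and 3 fell (11.1%, against 4.06%). The subunits NFKB2 and RELB of the non-canonical arm rose, at 0.50 ± 0.12 and 0.53 ± 0.12, as did TNFAIP2 (0.48 ± 0.12). PTGS2, the inducible cyclooxygenase COX-2, had 193 and 200.1 CPM in PR_RUX, against 118 and 113 CPM in PR_DMSO (0.76 ± 0.15, adjusted p = 0.0017). The falls were the chemokines CCL2 and CXCL2 and the cytokine IL18, at -1.73, -0.52 and -0.66. With 1 library left out, 1 to 3 rose and 1 to 4 fell.

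Immediate early genes were also divided, with 4 of 29 higher and 4 lower, although 0 or 1 was higher and 1 to 3 lower when 1 library was left out. JUN, a subunit of AP-1, had 30.5 and 35 CPM in PR_RUX, against 53.4 and 52.2 CPM in PR_DMSO (-0.68 ± 0.09, adjusted p = 2.3e-05). FOSL1, another AP-1 subunit, fell (-0.65 ± 0.17), with KLF6 and SPRY2. The rises in this list were KLF2, ETV5 and the MAPK phosphatases DUSP4 and DUSP6, from 0.77 for KLF2 to 0.23 for DUSP4. The list did not include NR4A1, whose larger rise is given above. KLF2 had unequal PR_RUX libraries, at 2.43 and 4.73 CPM, against 1.56 and 1.66 CPM in PR_DMSO.

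All matrix and mesenchymal genes that were called fell, a share of 43.5% of those tested, against 4.06% of all genes. Of those tested, 5 lay above 0, up to 0.56. Of 23 tested, 10 fell and none rose, with a median of -0.38, and 8 to 10 fell when 1 library was left out. TGFBI, a matrix protein induced by TGF-beta, had 396 and 425 CPM in PR_RUX, against 771 and 789 CPM in PR_DMSO (-0.92 ± 0.08, adjusted p = 9.7e-08). CD44, a hyaluronan receptor used as a marker of stem-like breast cancer cells, had 35.8 and 38.9 CPM in PR_RUX, against 65.1 and 65.4 CPM in PR_DMSO (-0.79 ± 0.09, adjusted p = 5.1e-06).

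SNAI2, a transcription factor of epithelial-mesenchymal transition, had 1.48 and 1.59 CPM in PR_RUX, against 4.51 and 4.33 CPM in PR_DMSO (-1.10 ± 0.18, adjusted p = 0.00028). CDH11, TNC, COL5A1, LOXL2, THBS1 and CYR61 also fell, from -1.57 for TNC to -0.40 for CYR61. Vimentin (VIM) gave -0.24 ± 0.28, fibronectin (FN1) -0.25 ± 0.12 and ZEB1 -0.06 ± 0.25, none of them called. Of the 5 stromal and endothelial markers tested, CDH5 was lower (-0.89 ± 0.18) and RGS5 higher (0.40 ± 0.12). The RGS5 call was lost when any 1 library was left out, and the CDH5 call was not kept in every such fit. The summed level of that marker list, given above, was higher in PR_RUX. Whether other cells take part in these changes was not tested.

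Of 25 basal, stress and cornified genes, 6 fell and none rose, with a median of -0.28; 4 or 5 fell when 1 library was left out. Beside KRT6A and KRT16, LAMA3, a laminin chain of the epithelial basement membrane, fell. It had 9.82 and 9.39 CPM in PR_RUX, against 18.3 and 20.02 CPM in PR_DMSO (-0.92 ± 0.11, adjusted p = 2.6e-06). TP63 fell to 9.15 and 8.39 CPM, against 14.2 and 14.3 CPM (-0.64 ± 0.14, adjusted p = 0.0059). KRT6C was nearly absent, at 0 and 0.207 CPM in PR_RUX and 0.801 and 0.89 CPM in PR_DMSO.

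The integrated stress response, through which the factor ATF4 raises amino acid synthesis and transport, moved the other way. Of 27 genes, 15 rose (55.6%, against 2.86% of all genes) and none fell, with a median of 0.33 and 25 above 0. The sizes were modest, and with 1 library left out 5 to 7 were called. ATF4 had 494 and 481 CPM in PR_RUX, against 377 and 382 CPM in PR_DMSO (0.36 ± 0.08, adjusted p = 0.0075).

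ASNS, asparagine synthetase, whose promoter above holds the ATF4 element, had 715 and 696 CPM in PR_RUX, against 477 and 464 CPM in PR_DMSO (0.58 ± 0.10, adjusted p = 0.00053). PHGDH, the first enzyme of serine synthesis, had 179 and 180.3 CPM in PR_RUX, against 116 and 122 CPM in PR_DMSO (0.59 ± 0.10, adjusted p = 0.00037), and the next enzymes PSAT1 and PSPH rose by smaller steps (0.40 and 0.32). DDIT4, an inhibitor of mTORC1, had 489 and 476 CPM in PR_RUX, against 322 and 309 CPM in PR_DMSO (0.61 ± 0.09, adjusted p = 6.7e-05). In these genes every PR_RUX library lay above every PR_DMSO library.

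NUPR1, CTH, CBS, TRIB3, CHAC1, SESN2, STC2, PCK2 and SLC7A1 rose as well, from 0.55 for NUPR1 to 0.27 for SLC7A1. The apoptosis-linked member DDIT3 gave 0.24 ± 0.11 and was not called. Of 22 chaperones and genes of the unfolded protein response, none rose and HSP90B1 (-0.39 ± 0.08) and CALR (-0.27 ± 0.06) fell.

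Few cell cycle genes were called. None of 36 G2/M genes passed by limma (10 at an unadjusted p under 0.05, and 1 called by voom), although 31 lay above 0 with a median of 0.12. After the correction for GC and length, 13 were called higher and 1 lower. Of 37 replication genes, MCM3 rose (0.39 ± 0.08, adjusted p = 0.0034), with a list median of 0.08, and of 24 cyclin, CDK inhibitor and E2F genes, CDKN2B, which encodes p15, fell (-0.44 ± 0.09). Of 23 p53 targets, SESN2 and TNFRSF10B rose and TP53I3 fell, and all 3 calls were lost when any 1 library was left out. Of 17 BCL2-family genes, BCL2L2 fell (-0.32 ± 0.09). Limma and voom called no gene among 24 of cholesterol synthesis (1 at an unadjusted p under 0.05 by limma), 19 heat shock proteins (4) and 7 metallothionein and zinc genes (0). The 13 mitochondrially encoded genes were all above 0 with a median of 0.22, and none was called by limma or voom or had an unadjusted p under 0.05. Their median ran from -0.09 to 0.48 as 1 library or another was left out.

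Genes tied to taxane response in other work were examined as lists. Of 23 tubulins and microtubule-associated proteins, TUBB3, a beta-tubulin isotype linked to taxane resistance, had 5.48 and 4.38 CPM in PR_RUX, against 11 and 13.1 CPM in PR_DMSO (-1.14 ± 0.11, adjusted p = 3.9e-07). TUBA1A fell (-0.45 ± 0.10) and MAPT, which encodes the microtubule-binding protein tau, rose to 16.3 and 15 CPM in PR_RUX, against 9.82 and 8.98 CPM in PR_DMSO (0.68 ± 0.13, adjusted p = 0.0011). Of 13 efflux genes, ABCC4 and ABCA3 rose (0.50 and 0.33) and ABCC2 and the vault protein MVP fell (-0.34 and -0.48).

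Of 23 NRF2 targets and aldo-keto reductases, 5 rose and 1 fell, and 1 to 3 rose when 1 library was left out. AKR1C1, which shares sequence with AKR1C2, had 439.7 and 434 CPM in PR_RUX, against 299.7 and 286 CPM in PR_DMSO (0.57 ± 0.08, adjusted p = 6.5e-05). Haem oxygenase (HMOX1) fell to 32.4 and 32.4 CPM in PR_RUX, against 54.6 and 50.4 CPM in PR_DMSO (-0.68 ± 0.11, adjusted p = 0.00037). NQO1, TXNRD1, AKR1B10 and AKR1C2 were the other rises. Of 8 aryl hydrocarbon receptor targets, CYP1B1 fell (-0.62 ± 0.13) and 1 rose, while 6 lay above 0, with a median of 0.05. The CYP1B1 call was not kept in every fit that left out a library.

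Among the remaining lists, a few single genes stood out. MUC21, a membrane mucin, had 2.1 and 1.76 CPM in PR_RUX, against 0.253 and 0.445 CPM in PR_DMSO (1.12 ± 0.17, adjusted p = 7.8e-05), and MUC1 fell (-0.41 ± 0.12). ANGPTL4, an inhibitor of lipoprotein lipase, had 15.8 and 21.2 CPM in PR_RUX, against 32.1 and 35.4 CPM in PR_DMSO (-0.85 ± 0.12, adjusted p = 5.4e-05). ACSS2, which makes acetyl-CoA from acetate, had 167 and 155 CPM in PR_RUX, against 99.5 and 105 CPM in PR_DMSO (0.65 ± 0.09, adjusted p = 2e-05). BTC and EGFR fell and HBEGF rose among 23 genes of ERBB receptors, ligands and the ERBB2 amplicon (-0.73, -0.25 and 0.41).

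Of 28 hypoxia and glycolysis genes, DDIT4 and the hexokinase HK2 (0.28) rose, and ANGPTL4, PFKFB3 (-0.33) and the enolase ENO2 (-0.44) fell, with a median of -0.08. Of 24 luminal and apocrine genes, PIP and the tight junction gene CLDN7 rose and MUC1 and TFAP2B fell. CLDN7 had 352 and 354 CPM in PR_RUX, against 249.5 and 253 CPM in PR_DMSO (0.49 ± 0.10, adjusted p = 0.0029). Single calls, a smaller share than the 6.92% of all genes, were made in several lists. Those given above are the feedback inhibitors, the replication genes, the BCL2 family, and the cyclin, CDK inhibitor and E2F genes. The same holds for 18 genes of fatty acid synthesis, with ACSS2. Among 28 lysosome and autophagy genes WIPI1, a phosphoinositide-binding autophagy protein, rose (0.41 ± 0.09). Among 25 poly-A histone transcripts the linker histone gene H1F0 fell (-0.29 ± 0.09). The H1F0 call was lost when any 1 library was left out. With 1 library left out, 1 or 2 hypoxia and glycolysis genes rose and 1 or 2 fell, 2 luminal and apocrine genes rose and 0 or 1 fell, and 0 or 1 gene of the ERBB list rose and 1 fell. Likewise 1 tubulin or microtubule gene rose and 1 or 2 fell, 0 or 1 efflux gene moved in each direction, and 0 or 1 fell among the class I genes and among the chaperones.

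On a background of 6.5 nM paclitaxel, most genes called without it lay on the same side of 0. PR_RUX_PTX against PR_PTX_Low gave 418 called genes (3.28% of those tested), of which 148 rose (1.16%) and 270 fell (2.12%). This comparison shares no library with PR_RUX against PR_DMSO. The labels give 15 nM ruxolitinib here and 15 uM there, so effects of dose and of paclitaxel on the response cannot be told apart. Of the 882 genes called without paclitaxel, 868 (98.4%) had the same direction with it, and 66.1% of uncalled genes did. Both comparisons called 324 genes in the same direction, 36.7% of the calls without paclitaxel and 77.5% of those with it, and none in opposite directions. The median absolute log2 fold change of the 882 genes was 0.48 in the comparison that chose them and 0.31 with paclitaxel, and being chosen by the first raises the first.

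KRT6A had 2.99 and 4.61 CPM in PR_RUX_PTX, against 13.3 and 11.5 CPM in PR_PTX_Low (-1.50 ± 0.15, adjusted p = 2.5e-06). SOCS3 had 0.325 and 0.542 CPM in PR_RUX_PTX, against 3.41 and 2.16 CPM in PR_PTX_Low (-1.38 ± 0.18, adjusted p = 3.3e-05). IRF9 had 5.95 and 6.07 CPM in PR_RUX_PTX, against 12 and 17 CPM in PR_PTX_Low (-1.12 ± 0.15, adjusted p = 4.6e-05). In all these the ruxolitinib libraries lay below both paclitaxel-only libraries.

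Among the lists, 15 of 45 type I interferon genes (33.3%), 8 of 23 mesenchymal genes (34.8%) and 7 of 31 STAT3 and STAT5 targets (22.6%) fell with paclitaxel present. Of 27 integrated stress response genes, 7 rose (25.9%). Over all genes, 2.12% fell and 1.16% rose. A test of the difference between the 2 ruxolitinib responses called 0 of 12743 genes (0%) by limma, with 305 at an unadjusted p under 0.05 and a smallest adjusted p of 0.713; voom on recovered reads also called 0. The median standard error of that difference was 0.17 on the log2 scale, and the difference of 0.92 ± 0.21 for KRT6A also had an adjusted p of 0.713. With 2 libraries a group, the absence of calls does not show that the 2 responses were equal. Their labelled ruxolitinib doses also differ, so the test is not of paclitaxel alone. Leaving out 1 library took the count for PR_RUX_PTX against PR_PTX_Low to between 141 and 172.

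**Figure D4:**
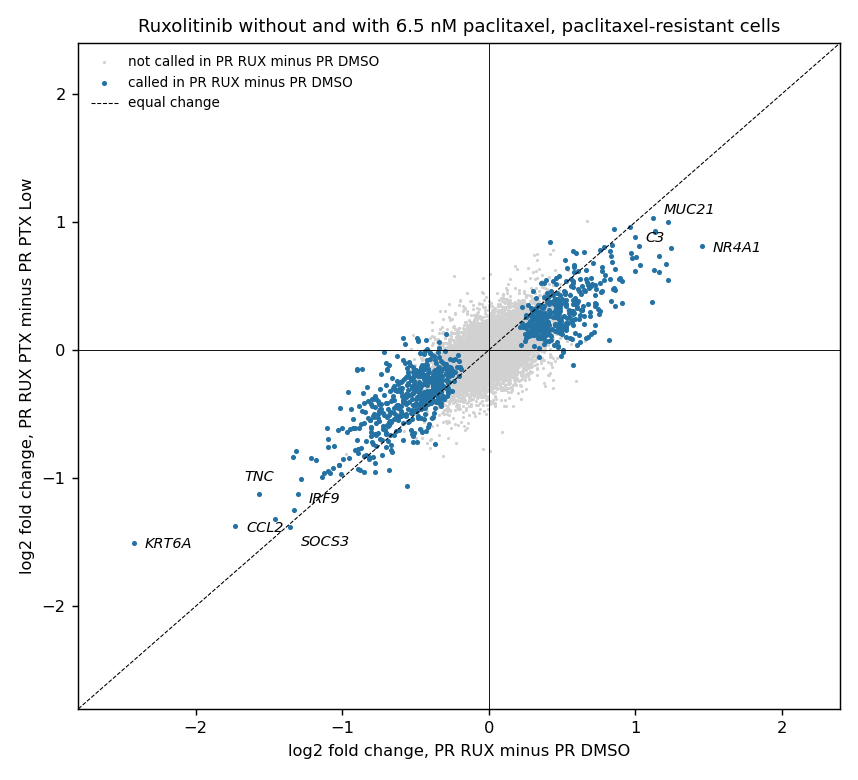
Log2 fold change of PR_RUX over PR_DMSO (horizontal axis) and of PR_RUX_PTX over PR_PTX_Low (vertical axis) per gene, with the 882 genes called in the first in blue and a dashed line of equal change. Called genes lie mostly at the lower left and upper right, and the points for KRT6A and TNC lie nearer 0 on the vertical axis.

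In parental cells given the same dose, KRT6A (-1.95), TNC (-1.72), SOCS3 (-2.25) and IRF9 (-0.72) fell too. Par_RUX against Par_DMSO gave 1685 calls (13.2%), with 702 higher (5.51%) and 983 lower (7.71%). After the correction for GC and length 1692 were higher and 1730 lower. There were between 751 and 1727 calls as single libraries were left out, with 869 without the first Par_RUX library and 751 without the second. Of the 882 genes called in resistant cells, 847 (96.0%) had the same direction in parental cells, against 67.0% of uncalled genes. Both lines called 586 genes in the same direction, 66.4% of the calls in resistant cells and 34.8% of those in parental cells. IGFBP5 and PI3 were called in opposite directions.

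The difference between the 2 responses was itself tested, and 52 genes passed (0.408% of those tested). In 38 (0.298%) the response was more positive in resistant cells and in 14 (0.11%) more negative. Without the first Par_DMSO library 92 passed, and without the second 30; leaving out single libraries of the other groups gave 25 to 32. In 26 of the 52 genes the fold change was below 0 in both lines and further below in parental cells. The set held IL6, IRF1, GBP1, FGA, FGB, SERPINA3, S100A8 and S100A9. Without the second Par_DMSO library, the differences for IL6, IRF1 and SERPINA3 were not called. Those for GBP1, FGA, FGB, S100A8 and S100A9 were called with each Par_DMSO library left out in turn.

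FGB had 287 and 279 CPM in Par_RUX, against 1334 and 1169 CPM in Par_DMSO (-2.14 ± 0.12), so its fall was larger in parental cells by 1.08 ± 0.16 (adjusted p = 0.0011). FGA, the fibrinogen alpha chain, had 1.29 and 1.73 CPM in PR_RUX and 1.73 and 1.7 CPM in PR_DMSO, with no call. In parental cells FGA had 1.44 and 1.09 CPM in Par_RUX, against 8.74 and 8.99 CPM in Par_DMSO, and the difference was 2.01 ± 0.27 (adjusted p = 0.00034). GBP1, an interferon-induced GTPase, differed by 1.32 ± 0.17 (adjusted p = 0.00011), and IRF1 by 0.72 ± 0.14 (adjusted p = 0.019). The IRF1 difference was not called with only the libraries compared in the fit, nor in most fits that left out a library.

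For genes scarce in resistant cells, part of such a difference comes with the scale of CPM + 1. HTR3A, a serotonin receptor, was 6.78-fold lower in PR_RUX than in PR_DMSO and 13.1-fold lower in Par_RUX than in Par_DMSO on the CPM scale, with 0.143 and 0.138 CPM in PR_RUX and 1.14 and 0.769 CPM in PR_DMSO. Its difference of 1.72 ± 0.18 on the log2 scale was not called by voom (1.12, adjusted p = 0.754). FGL1 and KRT6B were likewise not called by voom, at 0.08 and -0.52, against 1.36 and 1.35, and IL6, HP and KRT6C were among the 15 of the 52 genes that voom did not call.

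In 11 genes the resistant cells lay above 0 and the parental cells below. PI3, the elastase inhibitor elafin, had 15.2 and 14.9 CPM in PR_RUX, against 7.84 and 7.56 CPM in PR_DMSO (0.89 ± 0.11, adjusted p = 6.9e-06). In parental cells PI3 had 23.2 and 21.4 CPM in Par_RUX, against 34.7 and 41.9 CPM in Par_DMSO (-0.75 ± 0.11). ORM1, the acute-phase orosomucoid with a close copy in ORM2, gave 0.38 ± 0.12 in resistant cells, not called, and -1.49 ± 0.12 in parental cells.

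CES1 rose in resistant cells, as given above, and had 2.72 and 2.14 CPM in Par_RUX and 2.79 and 3.55 CPM in Par_DMSO, so the responses differed by 1.45 ± 0.22 (adjusted p = 0.00086). The reverse held for 6 genes, led by IGFBP5, which binds insulin-like growth factors. IGFBP5 had 193 and 185 CPM in PR_RUX, against 389 and 384 CPM in PR_DMSO (-1.03 ± 0.10, adjusted p = 3.1e-07). In parental cells it had 357 and 351 CPM in Par_RUX, against 219 and 253 CPM in Par_DMSO (0.59 ± 0.10, adjusted p = 0.00017). IGFBP5, PI3, ORM1, CES1, FGA, FN1, MATN2 and NANOS1 differed between lines under each of the 19 alternatives, those without 1 Par_DMSO library included.

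The lists gave the following counts in the 2 lines. Over all genes tested, 4.06% fell in resistant cells, 7.71% fell in parental cells, and the difference was called in 0.408%. Of 45 type I interferon genes, 17 fell in resistant and 18 in parental cells, and the difference was called in 0 by limma and by voom (8 at an unadjusted p under 0.05 by limma), with a median of 0.01. Of 31 STAT3 and STAT5 targets, 10 fell in resistant and 19 in parental cells, and the difference was called in 3, each less negative in resistant cells, with a median difference of 0.31. Of 20 acute-phase genes it was called in 6, with a median of 0.34, and of 23 interferon-gamma and IRF1 targets in 2, with a median of 0.35, against 0.01 over all genes. Without the first and without the second Par_DMSO library those counts were 6 and 2 for the STAT3 and STAT5 targets, 8 and 4 for the acute-phase genes and 5 and 1 for the interferon-gamma targets. The medians stayed between 0.23 and 0.42 in these 3 lists. No gene of the type I interferon list was called without either library, and after the correction for GC and length 4 were called more positive and 1 more negative in resistant cells.

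**Figure D5:**
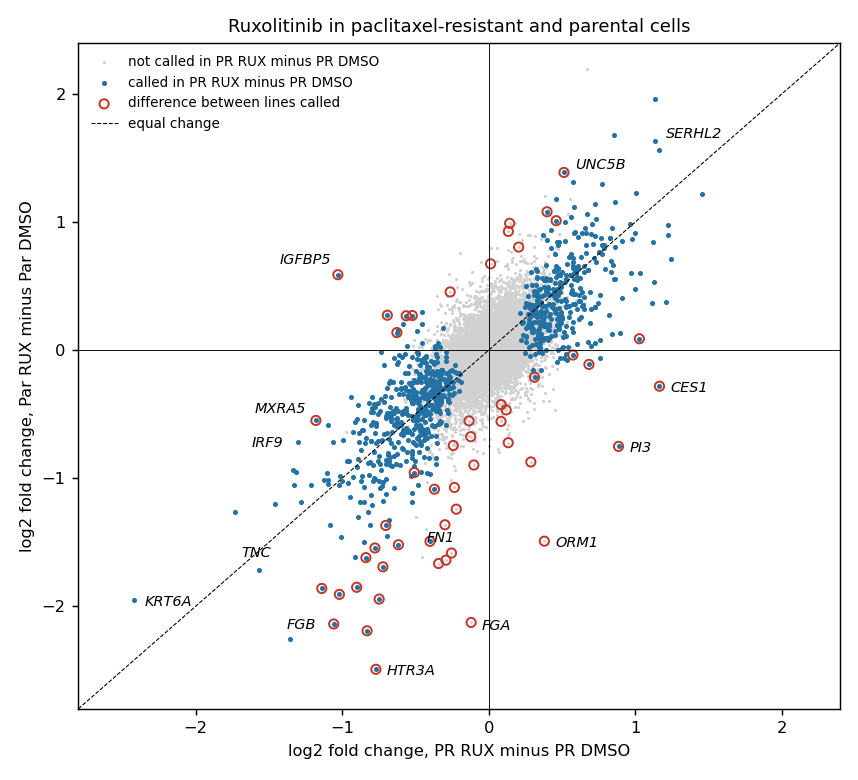
Log2 fold change of PR_RUX over PR_DMSO (horizontal axis) and of Par_RUX over Par_DMSO (vertical axis) per gene, with the 882 genes called in resistant cells in blue, the 52 genes whose difference between lines was called ringed in red, and a dashed line of equal change. Most ringed genes lie below the dashed line, with FGA at -0.12 on the horizontal and -2.13 on the vertical axis, and IGFBP5 lies at the upper left.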

How the data were processed

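Poly-A RNA of 30 libraries (15 groups of 2) was sequenced. The submitters' processing notes name STAR 2.5.1b, edgeR and the GRCh37 (hg19) build. The authors deposited 1 table of log2(CPM + 1) values, scaled by TMM per its name. The sources used here do not name the read counter, the annotation or the strand setting, so reads of a gene and of an overlapping or antisense gene, or of a close copy, cannot be told apart. Every CPM value came out as a whole number of reads (100% within 0.01), from 18443749 to 32669995 reads per library. Precision stated from reads covers counting error only.

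Groups came from the labels. Genes with CPM of at least 1 in 2 or more of the 30 libraries (12743) were fitted on the deposited log2 values by limma (version 3.58.1, under R 4.3.3), with 1 mean per group and a variance trend with robust estimation. All 30 libraries shared 1 estimate of the spread. Tests were two-sided, with Benjamini-Hochberg adjustment within each of 5 comparisons and a threshold of 0.05. Genes were named from 38 lists (743 genes tested) and, by size, as the 15 largest called changes in each direction with a mean of at least 5 CPM in 1 group and no overlap between groups, or the 8 largest in the other comparisons. The comparison and the lists were chosen with earlier results of these data known. Lists are described by counts and medians, with no set test. Some list members are counted but not reported by name here. The fit was tested on simulated data. Tables and figures used Python 3.11.15, pandas 2.3.3, numpy 2.4.6 and matplotlib 3.10.9. Alternatives were another pseudocount (0.25 in place of 1 CPM), other filters, median-of-ratios scaling, a replicate block, fewer libraries in the fit, voom on recovered reads, a correction for GC and length, no variance trend, and leaving out each library. Where that left a group with 1 library, the lone library was assumed to vary like the other groups.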

Additional observations from a re-analysis of the deposited data

Results flagged for a closer look

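The response to ruxolitinib differed between resistant and parental cells in 52 genes, by a test of the difference itself. Values are the log2 response of resistant cells minus that of parental cells, with limma's adjustment over all genes tested. Positive differences, where resistant cells fell less or rose, were found for FGA (2.01), ORM1 (1.87), HTR3A (1.72), PI3 (1.64), CES1 (1.45), FGL1 (1.36), KRT6B (1.35) and FN1 (1.33). Negative differences were found for IGFBP5 (-1.62), SLC26A2 (-0.96), UNC5B (-0.87), MATN2 (-0.85), ID4 (-0.83), ZBED3 (-0.79), NANOS1 (-0.79) and DKK1 (-0.76).

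SLC26A2, a sulfate transporter, had 19.2 and 21.8 CPM in PR_RUX, against 33.7 and 33.6 CPM in PR_DMSO, and 45.7 and 42.7 CPM in Par_RUX, against 39.9 and 33.2 CPM in Par_DMSO. MATN2, a matrix adaptor, gave 0.14 ± 0.08 in resistant cells, not called, and 0.99 ± 0.08 in parental cells. DKK1, a secreted WNT inhibitor, gave -0.63 ± 0.12 in resistant cells (adjusted p = 0.0014) and 0.14 ± 0.12 in parental cells, not called. With 1 of the 8 libraries left out in turn, the differences for DKK1, ID4 and SLC26A2 were called in 1 of 8 fits each, for UNC5B in 3 and for ZBED3 in 0, and the other 11 genes in each of the 8. By voom on recovered reads HTR3A (1.12), FGL1 (0.08), DKK1 and ZBED3 were not called, and KRT6B turned to -0.52, not called.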

How the results depend on the processing

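Counts of called genes rest on the spread that limma shares across groups. For PR_RUX against PR_DMSO, 882 genes became 2102 with only the resistant line in the fit, 3102 with only the 4 libraries, 1924 after the correction for GC and length, and 358 to 407 with 1 library left out. For parental cells, 1685 became 775 with only that line in the fit, 619 with only the 4 libraries and 3422 after the correction, and 751 to 1727 with 1 library left out. For the difference between lines, 52 became 28 with only the libraries compared, 241 after the correction, and 25 to 92 with 1 library left out. On paclitaxel, 418 became 1047 with only the resistant line, 2677 with only the 4 libraries and 1229 after the correction, and 141 to 172 with 1 library left out. The difference between the responses with and without paclitaxel, whose labelled ruxolitinib doses also differ, gave 0 genes. That count became 1 with the resistant line alone and 82 with only the libraries compared. For PR_RUX against PR_DMSO, calls that were higher made up 50.1% with the correction and 41.3% without it. In parental cells they made up 49.4% with and 41.7% without it, and on paclitaxel 49.0% with and 35.4% without it. For the difference between lines they made up 62.7% with and 73.1% without it. KRT6B reversed in voom, where its difference between lines was -0.52, not called. No replicate pairing is given by the design, and deviations of same-numbered libraries correlated at -0.01 for PR_RUX with PR_DMSO, 0.15 for Par_RUX with Par_DMSO, 0.04 for PR_RUX_PTX with PR_PTX_Low, and -0.08 to 0.38 for the other pairs of groups, with the highest for PR_RUX with Par_DMSO. A replicate block gave 838, 1591, 49, 397 and 0 calls for the 5 comparisons in the order above, and together with the correction for GC and length 1886, 3394, 228, 1204 and 0. Other alternatives moved no count by over 1.5 times. With 2 libraries a group, a median standard error of 0.12 on the log2 scale limits what could be called, and low genes are further limited by their reads.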
